A study of Mus musculus with 16 samples.

Results

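The interferon-induced PARP family and its partners are described here in foetal liver erythroblasts with and without *Nprl3*, a subunit of the GATOR1 complex that restrains the nutrient sensor mTORC1. The members are *Parp9*, *Parp10*, *Parp11*, *Parp12*, *Parp14*, *Dtx3l* and *Zc3hav1*. They were chosen by symbol, and all 7 were found, once each, among the 55416 genes of the read-count table. The RNA-seq covered 2 maturation stages, S1 and S3, in 8 mouse embryos at E13.5, with 1 library per embryo and stage (16 libraries). S1 cells are erythroid progenitors (CFU-E) and S3 cells basophilic erythroblasts, separated by flow cytometry on Ter119 and CD71. The wild-type (WT) group held embryos 0, 1, 5 and 8, the heterozygous (Het) group embryos 3 and 4, and the *Nprl3*-/- (KO) group embryos 2 and 9. The mutant allele lacks the *Nprl3* promoter region in all cells of the embryo and keeps the α-globin enhancers that lie in the gene's introns. The colony was backcrossed to C57BL/6J, no embryo received interferon or any other agent, and the sources used here do not tie embryos to litters.

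PARP proteins move ADP-ribose from NAD+ onto other molecules, and the interferon-induced members mostly add single ADP-ribose units. Interferon binds its receptors, JAK kinases phosphorylate STAT proteins, and their complexes with IRF9 switch on genes whose promoters carry short interferon-response elements. Among the switched-on genes are several PARPs, which are known for restricting viruses and for modifying the same signalling pathway. The term interferon-induced is background for these genes and not something the design tested.

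*Nprl3* itself was counted at 22.6 to 32.6 CPM (counts scaled to library size, with TMM factors over the 16 libraries) in the WT libraries at S1, at 12.7 to 13 in Het and at 0.319 to 0.676 in KO. At S3 it was at 146 to 204 CPM in WT, 118 to 146 in Het and 107 to 111 in KO, so the KO libraries were lowest at both stages but far from 0 at S3. Reads from outside the deleted promoter region still count towards the gene and do not check the deletion. Library totals ran from 20666044 to 37609502 counted read pairs. The erythroid marker list summed to 1937 to 9233 CPM at S1 and to 142800 to 186760 CPM at S3. Some label fields name an embryonic stem cell line. The embryonic stem cell markers summed to at most 0.102 CPM in any library, with *Pou5f1* at no more than 2 reads.

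In the mm39 genome the members lie on chromosomes 16, 6 and 15. *Dtx3l* (ENSMUSG00000049502.18, chromosome 16, 35746881 to 35759521, minus strand) and *Parp9* (ENSMUSG00000022906.16, chromosome 16, 35758840 to 35792975, plus strand) run head to head, overlap where they start, and share 458 exonic bases on opposite strands. *Parp14* (ENSMUSG00000034422.15, chromosome 16, 35653244 to 35691914, minus strand) lies 67607 bases from *Dtx3l* by their starts. *Zc3hav1* (ENSMUSG00000029826.15, chromosome 6, 38282221 to 38331538, minus strand), *Parp12* (ENSMUSG00000038507.7, chromosome 6, 39063344 to 39095283, minus strand) and *Parp11* (ENSMUSG00000037997.13, chromosome 6, 127423803 to 127471224, plus strand) share a chromosome, and *Parp10* (ENSMUSG00000063268.13, chromosome 15, 76115374 to 76127641, minus strand) stands alone. The counting ignored strand and dropped reads that overlapped more than 1 gene. The shared part is 9.40% of the exonic length of *Parp9*, 8% of that of *Dtx3l*, 4.80% of that of *Parp10* (with *Plec*) and 1.18% of that of *Parp14*, so those values rest on the remaining exons.

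RefSeq promoter windows, which the table gives on the older build GRCm38.p6, were at hand for *Zc3hav1*, *Parp12*, *Parp11* and *Dtx3l*, in 5 windows. Each was placed by its only exact match on its chromosome in GRCm39, the same assembly as mm39, and the coordinates here are of that build. The 250 bases upstream of each start were searched on both strands for the core of the interferon-stimulated response element, GAAA and GAAA with any 2 bases between them, and for the core of the STAT site, TTC and GAA with any 3 bases between them. These cores occur in 2.98% and 7.02% of all 32851 promoters in the table. A match was found in 1 of the 5 windows, upstream of *Parp11*, where the response-element core lies 44 bases before the start on the minus strand and overlaps a STAT core that begins 37 bases before it. That window and those of *Zc3hav1* and *Parp12* had 0 bases outside annotated untranslated exons. The lack of a core for *Zc3hav1* and *Parp12* thus refers to bases inside annotated transcripts, and sequence further upstream was not searched. The *Parp11* site is shown because it holds the only matches, with both cores in capitals as 1 run (chr6:127423752-127423781, plus strand), and all of its 30 bases lie in an annotated untranslated exon of a longer *Parp11* transcript (GENCODE). The *Dtx3l* stretch, which lies inside the body of *Parp9*, is shown as the part of that shared promoter region without annotated untranslated exon (chr16:35759577-35759647, minus strand), and it holds neither core.
Parp11: cttttagTTTCGATTTCTTGGAAcccgtgg
Dtx3l: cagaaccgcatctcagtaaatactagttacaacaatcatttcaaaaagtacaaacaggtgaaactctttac

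At S3, 5 of the 7 members rose in KO erythroblasts: *Parp9*, *Parp10*, *Parp12*, *Parp14* and *Dtx3l*. Their mean CPM was between 3.68 and 7.63 times the WT mean, and each passed an adjusted p of 0.05 in the quasi-likelihood F test of edgeR, with p-values adjusted by the Benjamini-Hochberg method over 11804 genes, of which 0.559% passed. *Parp11* and *Zc3hav1* did not pass. In 6 of the 7 members both KO libraries lay above all 4 WT libraries, an order seen in 6.57% of the genes tested. The median log2 fold change of the 7 members was 1.94, against 0.01 over all genes tested.

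*Parp9*, a macrodomain protein that works as a partner of the ubiquitin ligase DTX3L, was at 33.2, 23.7, 49.1 and 23.0 CPM in WT embryos 0, 1, 5 and 8 at S3, at 31.2 and 48.0 in Het embryos 3 and 4, and at 146 and 92.0 in KO embryos 2 and 9. The KO libraries stood clear of all others, its log2 fold change over WT being 1.94 (standard error, SE, 0.30, edgeR adjusted p = 0.0386). *Dtx3l*, the ligase itself, was at 13.2, 10.5, 17 and 8.34 CPM in the same WT order, at 12 and 16.5 in Het and at 54.4 and 35.8 in KO. Its 8 S3 libraries fell in the same order as those of *Parp9*, from KO embryo 2 at the top to WT embryo 8 at the bottom. The log2 fold change of *Dtx3l* was 1.93 (SE 0.26, edgeR adjusted p = 0.0242).

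*Parp12*, a mono-ADP-ribosyltransferase with CCCH zinc fingers, differed most. It was at 14.5, 7.24, 17.2 and 6.55 CPM in WT embryos 0, 1, 5 and 8, at 11.7 and 19.4 in Het embryos 3 and 4, and at 108 and 65.7 in KO embryos 2 and 9. The lower KO library was far above every Het and WT library, and the log2 fold change came to 2.98 (SE 0.37, adjusted p = 0.0189 in edgeR). *Parp14*, a large macrodomain transferase linked to STAT6 signalling, was scarce, at 1.35, 0.841, 1.57 and 0.689 CPM in WT, 0.389 and 1.48 in Het, and 7.09 and 4.65 in KO. These values rest on 10 to 41 reads in WT, 7 to 29 in Het and 87 to 115 in KO. Its log2 fold change came to 2.42 (SE 0.36, adjusted p = 0.0337 in edgeR). *Parp10*, another mono-ADP-ribosyltransferase, was at 12.8, 7.15, 13.3 and 8.41 CPM in WT, 9.89 and 15.4 in Het, and 54.2 and 33.6 in KO. Both KO libraries were above all others, Het and WT overlapped, and the log2 fold change over WT came to 2.13 (SE 0.28, adjusted p = 0.0242 in edgeR).

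*Parp11*, a mono-ADP-ribosyltransferase with a WWE domain, was at 6.97, 5.37, 7.36 and 6.41 CPM in WT embryos 0, 1, 5 and 8 at S3, 5.61 and 7.11 in Het, and 7.77 and 6.63 in KO. The 3 groups overlapped, and the log2 fold change of KO over WT was 0.20 with a 95% interval from -0.29 to 0.68 (edgeR adjusted p = 0.910). *Zc3hav1* encodes the zinc-finger antiviral protein ZAP, a PARP-family member without catalytic activity that binds CpG-rich RNA. It was at 113, 87.0, 102 and 126 CPM in WT, 87.1 and 95.1 in Het, and 132 and 128 in KO. Both KO values lay above the WT values by a small margin, with a log2 fold change of 0.33 and an interval from -0.08 to 0.74 (edgeR adjusted p = 0.695). The intervals of *Parp11* and *Zc3hav1* do not reach 1 on the log2 scale, while those of the 5 members that rose begin between 1.25 and 2.13.

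**Figure D1:**
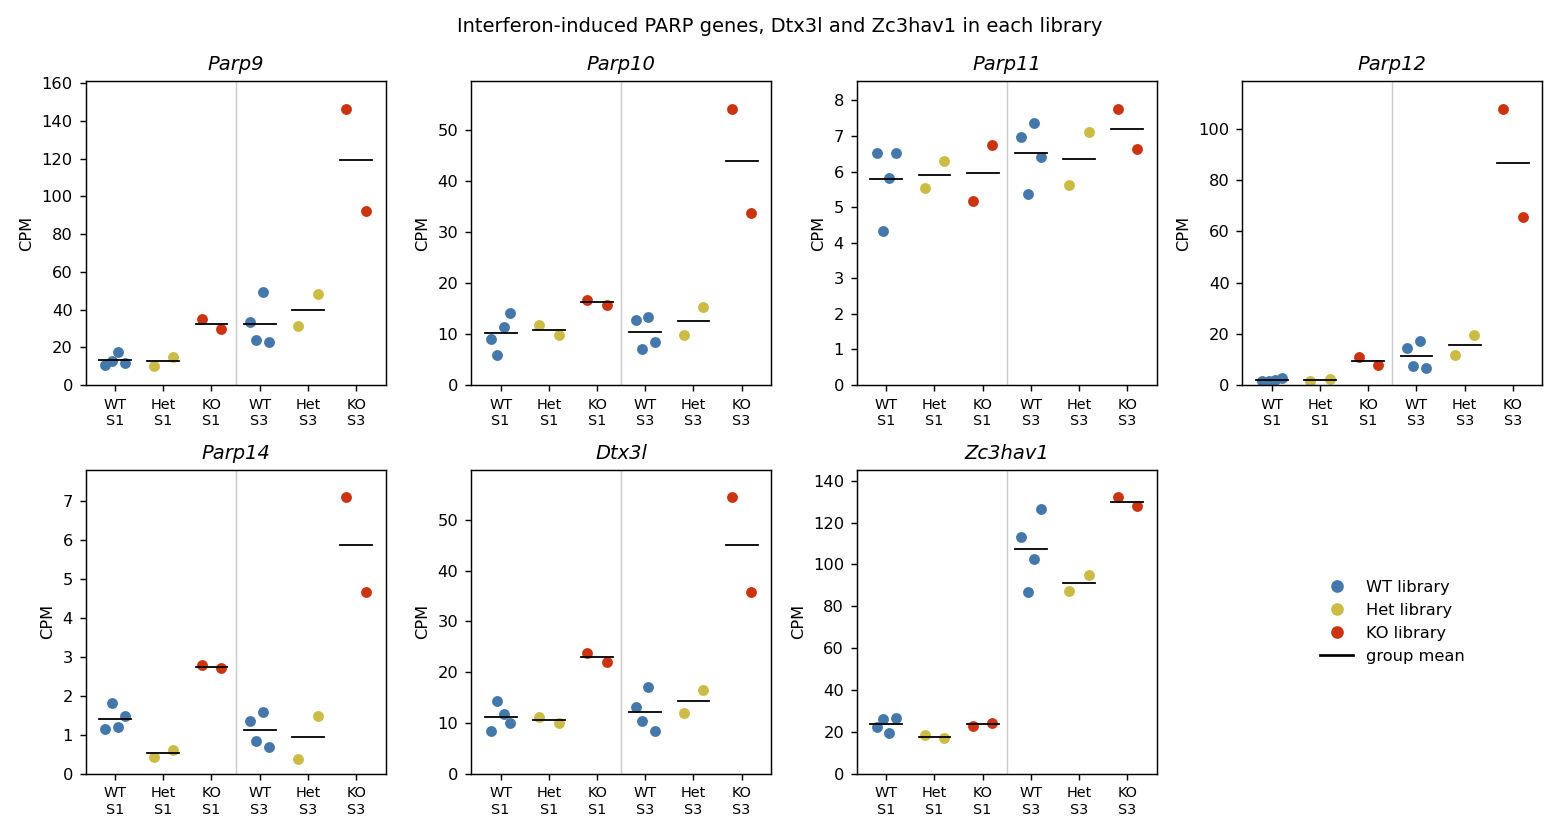
Level of each member in CPM (linear axis from 0, a separate range per gene) in each library, by genotype and stage, with the group mean as a black bar. At S3 the KO libraries of *Parp9*, *Parp10*, *Parp12*, *Parp14* and *Dtx3l* sit above all Het and WT libraries, those of *Parp11* lie within reach of the other groups, and *Zc3hav1* changes mainly with stage.

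Within the WT group the 5 members that rose in KO shared an order at S3, with embryos 5 and 0 above embryos 1 and 8 for each of them. Relative to the WT mean of the stage, on a log2 scale with a prior count of 2, the median of the 7 members at S3 was 0.16 in WT embryo 0, -0.31 in embryo 1, 0.52 in embryo 5 and -0.42 in embryo 8. It was -0.03 and 0.48 in Het embryos 3 and 4, and 2.25 and 1.59 in KO embryos 2 and 9. At S1 it ran from -0.20 to 0.18 in WT and from -0.08 to 0.02 in Het, and was 0.98 and 0.93 in KO. The spread among WT embryos was wider at S3 than at S1, and the KO embryos lay outside it at both stages.

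**Figure D2:**
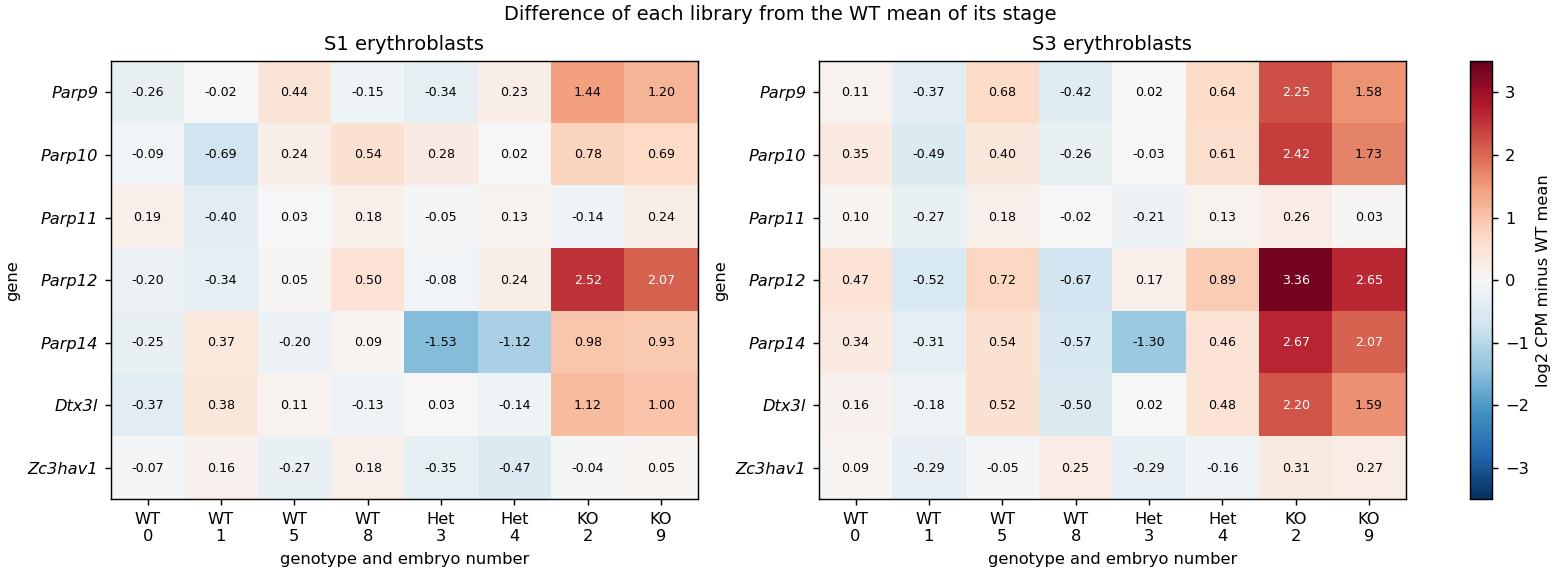
Difference of each library from the WT mean of its stage in log2 CPM, with members in rows and libraries in columns by genotype and embryo number (red higher, blue lower). The KO columns are highest at S3, up to 3.36 for *Parp12* in embryo 2, and *Parp14* is low in both Het libraries at S1.

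The calls at S3 depended on the libraries. Leaving out WT embryo 0, WT embryo 8 or KO embryo 2 left 0 members past the threshold in edgeR, with 11, 11 and 39 genes called over the whole table. Leaving out WT embryo 1 left 2 members (27 of 11791 genes called), WT embryo 5 left 4 (42 of 11687) and KO embryo 9 left 5 (42 of 11780). The median log2 fold change of the members stayed between 1.61 and 2.23 across those fits. The KO pair held 1 female and 1 male embryo, and within each sex the KO library was compared with 2 WT libraries. At S3 the KO library was above both for 7 of 7 members in females and for 6 of 7 in males, *Parp11* being the exception.

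Markers of other cells moved with genotype at S3, and their part in the members' difference was not tested. The macrophage list summed to 34.5 to 81.3 CPM in WT, 39.9 to 53.4 in Het and 17.3 to 32.5 in KO, and the hepatoblast list to 158 to 747, 112 to 152 and 66.2 to 193. The macrophage sums of KO lay below those of WT without overlap, and the hepatoblast sums overlapped at the low end of WT, while the members were higher in KO. Of the 11 macrophage markers tested, all had log2 fold changes below 0 and 1 passed in edgeR (*Marco*; 6 at an unadjusted p under 0.05, 3 in DESeq2), and of the 8 hepatoblast markers all were below 0 and 0 passed (5 at an unadjusted p under 0.05, 2 in DESeq2). Over all genes tested 8.52% passed unadjusted and 2.19% in DESeq2. The erythroid list was also lower in KO (142800 to 144720 CPM against 160890 to 186760 in WT). The neutrophil list summed to 1.11 to 4.69 CPM in WT and to 1.48 to 12.9 in KO, with *Ly6g* at 0 in every library, and the megakaryocyte list to 40.9 to 84.6 and 45.2 to 101. Of 5 megakaryocyte markers tested, 4 had log2 fold changes above 0, with *Ppbp* at 3.27 and *Gp1ba* at 1.27, the median being 0.74, and 0 passed in edgeR (2 at an unadjusted p under 0.05, 0 in DESeq2). *Ppbp* was at 0.247 and 24.6 CPM in the 2 KO libraries against 0.345 to 3.68 in WT. *Pf4*, the median gene, was at 0.555 and 27 against 1.78 to 27.8, and *Gp1ba* at 1.29 and 2.78 against 0.421 to 1.27. The values of *Ppbp* and *Pf4* thus rest on 1 KO library. Of the neutrophil list 2 genes were tested and 0 passed in edgeR (1 unadjusted, 0 in DESeq2), *Ngp* being at 0 in all WT libraries and at 0 and 3.48 CPM in KO. The lymphocyte and dendritic cell list was at or near 0 (at most 0.222 CPM in any S3 library). Of the most abundant marker of each list per length, *C1qb* (macrophage) was at 4.34 to 14.4 CPM in WT and 2.35 to 6.84 in KO, *Apoa2* (hepatoblast) at 25.5 to 49.7 and 9.68 to 17.4, *Gp9* (megakaryocyte) at 29.955 to 35.1 and 23.953 to 26.2, and *Hbb-bs* (β-globin) at 51363 to 58634 and 44625 to 45580, while *Siglech* was at 0 in both groups. In bulk libraries a change in the number of cells that express a gene and a change in RNA per cell cannot be told apart.

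At S1 the same 5 members were highest in the KO libraries, and edgeR called 0 of the 7 (0.00712% of the 14039 genes tested passed, which is 1 gene). At an unadjusted p under 0.05, 4 members passed (*Parp9*, *Parp12*, *Parp14* and *Dtx3l*), as did 2.53% of all genes. DESeq2 called 3 members (*Parp9*, *Parp12* and *Dtx3l*) and 0.321% of all genes. Both KO libraries were above all 4 WT libraries for 5 members, an order found in 6.17% of genes.

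*Parp12* was at 1.59, 1.44, 1.91 and 2.63 CPM in WT embryos 0, 1, 5 and 8 at S1, 1.74 and 2.18 in Het embryos 3 and 4, and 10.9 and 7.94 in KO embryos 2 and 9. The lower KO library lay well above the highest of the others, and the log2 fold change over WT was 2.31 (SE 0.32, edgeR adjusted p = 0.402). It ranked 3 by p among all genes of that comparison. *Parp9* was at 10.7, 12.6, 17.4 and 11.5 CPM in WT, 10.1 and 15 in Het, and 35.0 and 29.5 in KO, with a log2 fold change of 1.31 (SE 0.24, adjusted p = 0.641 in edgeR). *Dtx3l* was at 8.46, 14.3, 11.8 and 9.96 CPM in WT, 11.1 and 9.91 in Het, and 23.8 and 22.0 in KO. For both genes of this head-to-head pair the KO libraries were above all others while Het and WT overlapped, and the log2 fold change of *Dtx3l* was 1.05 (SE 0.24, edgeR adjusted p = 0.977).

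*Parp14* was at 1.16, 1.82, 1.20 and 1.48 CPM in WT at S1, 0.439 and 0.603 in Het, and 2.797 and 2.703 in KO. Its order was Het below WT below KO without overlap, and the log2 fold change of KO over WT was 0.97 (SE 0.30, edgeR adjusted p = 1.00). *Parp10* was at 9.12, 5.98, 11.4 and 14.1 CPM in WT, 11.8 and 9.79 in Het, and 16.7 and 15.7 in KO. The lower KO library was only just above the highest WT library, and the 95% interval of its log2 fold change of 0.67 ran from -0.12 to 1.47. *Parp11* (4.34 to 6.52 CPM in WT, 5.54 and 6.29 in Het, 5.18 and 6.76 in KO) and *Zc3hav1* (19.5 to 26.6 in WT, 18.4 and 17 in Het, 22.8 and 24.4 in KO) overlapped between KO and WT. Their log2 fold changes were 0.05 (interval -0.61 to 0.71) and 0.00 (interval -0.49 to 0.50).

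S1 libraries carried transcripts of the neutrophil list, led by *Mpo*, the myeloperoxidase gene, at 94.5 to 971 CPM in WT and 1227 to 1264 in KO. Other genes of the list were scarce, with *Ngp* at 0.229 to 5.52 and 0.0245 to 6.04 and *Ly6g* at 0. The kind of myeloid cell they came from was not tested. The list summed to 115 to 1306 CPM in WT, 1525 to 1566 in KO and 1484 to 1492 in Het. The erythroid list was lower in KO at S1, with 1937 to 3480 CPM against 2674 to 9233 in WT, and the ranges overlapped. Of its 10 genes, 9 had log2 fold changes below 0, with a median of -1.09 against -0.01 over all genes, and 0 passed in edgeR (0 also at an unadjusted p under 0.05). The part of these transcripts in the members' difference was not tested. The macrophage list at S1 was 16.8 to 38.5 CPM in WT and 16.4 to 24.4 in KO, and the hepatoblast list 48.5 to 291 and 25.2 to 144. For the megakaryocyte list the S1 ranges were 28.7 to 57.9 and 25.5 to 68.9 CPM, and for the lymphocyte and dendritic cell list 2.32 to 12.1 and 2.89 to 6.11.

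Loss of 1 allele gave no called member. In Het against WT, edgeR called 0 of 7 members at either stage (0% of genes at S3 and 0% at S1), and DESeq2 called 0 as well (0.00851% and 0.217% of genes). At an unadjusted p under 0.05 there were 0 members at S3 (3.18% of genes) and 1 at S1 (4.26%), *Parp14*. Both Het libraries were below all WT libraries at S1 for 2 members, *Parp14* and *Zc3hav1*, an order seen in 9.3% of genes. *Parp14* had a log2 fold change of -1.44 at S1 (SE 0.37, adjusted p = 0.905 in edgeR) on 21 reads in each Het library against 37 to 72 in WT. For *Zc3hav1* the S1 value was -0.42 with an interval from -0.90 to 0.06. Some marker sums were also lower in both Het libraries at S1 than in all WT libraries, and their part in these values was not tested: hepatoblast 21.2 to 35.6 CPM against 48.5 to 291, macrophage 11.5 to 14.8 against 16.8 to 38.5, megakaryocyte 16.6 to 18.99 against 28.7 to 57.9 and erythroid 2197 to 2419 against 2674 to 9233. At S3 the Het values of the 5 members that rose in KO overlapped the WT values, with log2 fold changes from -0.19 (*Parp14*) to 0.51 (*Parp12*).

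KO libraries were also set against the 2 Het libraries. Both Het embryos are male, so sex and genotype are partly mixed here and in Het against WT. The male KO library was above both Het libraries for 6 of 7 members at S3, *Parp11* being the exception, and for 7 of 7 at S1. Against the 2 male WT libraries, both Het libraries were lower at S3 for 1 member (*Zc3hav1*) and at S1 for 3 (*Parp11*, *Parp14* and *Zc3hav1*), and higher for 0. The comparisons with WT and with Het share the KO libraries, so they are not independent. At S3 edgeR called 1 member, *Parp12* (0.159% of genes called), and DESeq2 called 5 (1.64%). At an unadjusted p under 0.05, 6 members passed (10.6% of genes), and for 6 both KO libraries were above both Het libraries, as for 22.5% of genes. At S1 edgeR called *Parp12* (0.0434% of genes) and DESeq2 called 4 members (0.478%), 6 passed unadjusted (6.67%) and 6 stood above both Het libraries (17.9% of genes). The log2 fold change of *Parp12* over Het was 2.46 at S3 (SE 0.31, edgeR adjusted p = 0.0477) and 2.27 at S1 (SE 0.27, edgeR adjusted p = 0.0363). Both calls were lost in edgeR with upper-quartile scaling (adjusted p = 0.0749 and 0.0584) and with all 16 libraries in the fit (0.0688 and 0.481). The log2 fold change of *Parp14* over Het was 2.60 at S3 and 2.42 at S1, with edgeR adjusted p of 0.147 and 0.0793, and that of *Parp11* was 0.16 and 0.03. Markers of other cells also differed between KO and Het, and their part in these values was not tested. At S3 all 10 macrophage markers tested had log2 fold changes below 0 (median -0.94, 5 at an unadjusted p under 0.05), and 4 of 5 megakaryocyte markers (median 2.07, 3 unadjusted) and 2 of 3 neutrophil markers (2 unadjusted) were above 0. At S3 hepatoblast markers were above 0 in 3 of 8 (median -0.43, 1 unadjusted), and at S1 in 7 of 8 (median 1.22, 3 unadjusted). At S1 6 of 8 macrophage markers (median 0.71, 3 unadjusted), 4 of 5 megakaryocyte markers (median 0.69, 3 unadjusted) and 4 of 8 neutrophil markers (median -0.25, 4 unadjusted) were above 0. In edgeR 0 of these markers passed at either stage.

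**Figure D3:**
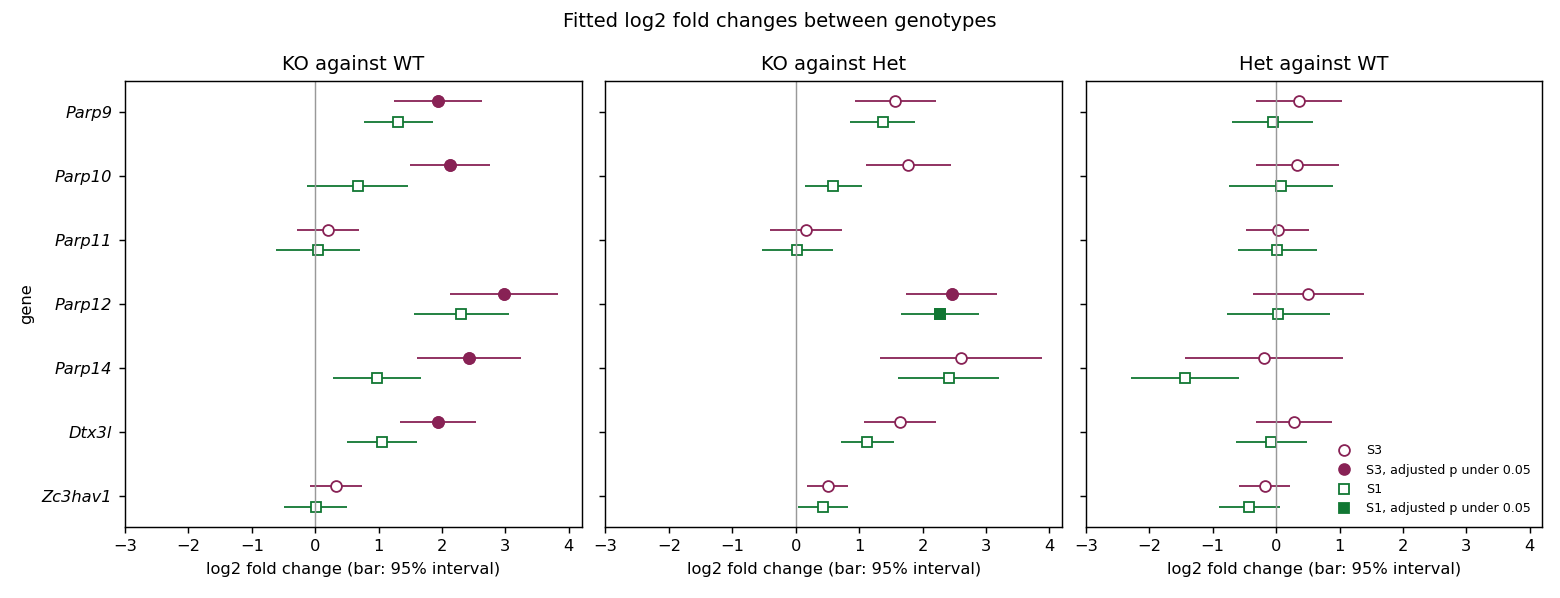
Fitted log2 fold changes (points) with 95% intervals (bars) for each member in KO against WT, KO against Het and Het against WT, at S3 (circles) and S1 (squares), with filled symbols for an edgeR adjusted p under 0.05. In both KO panels *Parp12* and *Parp14* lie far to the right at S3 and *Parp11* lies near 0, while in the Het panel only *Parp14* at S1 has an interval clear of 0.

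Maturation from S1 to S3 divided the members differently. In WT, 3 of 7 rose and passed the test (*Parp9*, *Parp12* and *Zc3hav1*), where 30.6% of 13514 genes did so and 35% fell, and for the same 3 every S3 library was above every S1 library, as for 27.6% of genes. *Zc3hav1* had the smallest p, with a log2 fold change of 2.25 (SE 0.18, adjusted p = 3.12e-06 in edgeR), and it was 3.33 to 5.26 times as high at S3 as at S1 in the 4 WT embryos. *Parp12* had 2.64 (SE 0.36, edgeR adjusted p = 0.000108) and *Parp9* 1.37 (SE 0.26, edgeR adjusted p = 0.00104). *Parp10*, *Parp11*, *Parp14* and *Dtx3l* had log2 fold changes between -0.26 and 0.23 in WT and overlapped between stages. Markers of other cells also moved with stage in WT, and their part in the members' rise was not tested. Of 11 macrophage markers tested 9 rose (median 1.91 on the log2 scale), and of 8 hepatoblast markers 4 rose (median 1.43). All 8 neutrophil markers tested fell, with a median of -7.80, as did all 3 tested of the lymphocyte and dendritic cell list, and of 5 megakaryocyte markers 1 rose and 1 fell.

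In KO, 6 of 7 rose from S1 to S3 and passed (24.7% of 13446 genes), and for 6 of 7 both S3 libraries were above both S1 libraries (33.8% of genes). The log2 fold changes were 3.29 for *Parp12*, 2.55 for *Zc3hav1*, 1.97 for *Parp9*, 1.52 for *Parp10*, 1.17 for *Parp14* and 1.06 for *Dtx3l*, with edgeR adjusted p from 0.000243 to 0.0262. *Parp11* was at 0.35 with an interval from -0.34 to 1.04. *Parp10*, *Parp14* and *Dtx3l* thus passed in KO and not in WT, which does not by itself show a difference. The test of that difference, the interaction of KO and stage, called 0 of 7 members in edgeR (0.00742% of 13485 genes) and 0 in DESeq2 (0.089%). At an unadjusted p under 0.05, 3 members passed (3.11% of genes): *Parp10* with a log2 difference of 1.45 (SE 0.51), *Parp14* with 1.46 (SE 0.50) and *Dtx3l* with 0.88 (SE 0.39), each with an edgeR adjusted p of 1.00. Markers of other cells also moved with stage in KO, and their part in the members' rise was not tested. Of 10 macrophage markers tested 8 had log2 fold changes above 0 (median 1.40), while in edgeR 0 rose and passed and 2 fell and passed. All 8 hepatoblast markers were above 0 (median 0.82), and 0 passed in edgeR (0 at an unadjusted p under 0.05). Of 8 neutrophil markers 0 were above 0 (median -3.85), and 4 fell and passed. The median over all genes tested was -0.09. Treating the embryo as a replicate block changed no member's call in these stage comparisons, with 9410 of 13514 genes called in WT and 9151 of 13446 in KO.

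Levels were compared between members only per kilobase of exon (CPM per kb). In WT at S3 *Zc3hav1* was highest at 16.5 ± 2.57 (SD, n = 4), then *Parp9* at 6.62 ± 2.50, *Parp12* at 2.85 ± 1.33, *Parp10* at 2.44 ± 0.726, *Dtx3l* at 2.14 ± 0.654, *Parp11* at 0.929 ± 0.123 and *Parp14* at 0.120 ± 0.0448. *Parp12*, *Parp10* and *Dtx3l* differed by less than the SD of *Parp12*. In KO at S3 *Parp9* was at 24.5 ± 7.91 CPM per kb (SD, n = 2), *Parp12* at 21.7 ± 7.49 and *Zc3hav1* at 19.9 ± 0.437, and these 3 differed by less than the SD of *Parp12*. *Parp10* followed at 10.3 ± 3.40 and *Dtx3l* at 7.88 ± 2.30, within the SD of *Parp10* of each other, then *Parp11* at 1.02 ± 0.114 and *Parp14* at 0.631 ± 0.185. At S1 in WT the order was *Zc3hav1* (3.63 ± 0.515), *Parp9* (2.68 ± 0.617), *Parp10* (2.37 ± 0.804), *Dtx3l* (1.94 ± 0.438), *Parp11* (0.826 ± 0.146), *Parp12* (0.474 ± 0.133) and *Parp14* (0.152 ± 0.0328). Neighbours from *Parp9* to *Dtx3l* in that order differed by less than the SD of *Parp10*.

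**Figure D4:**
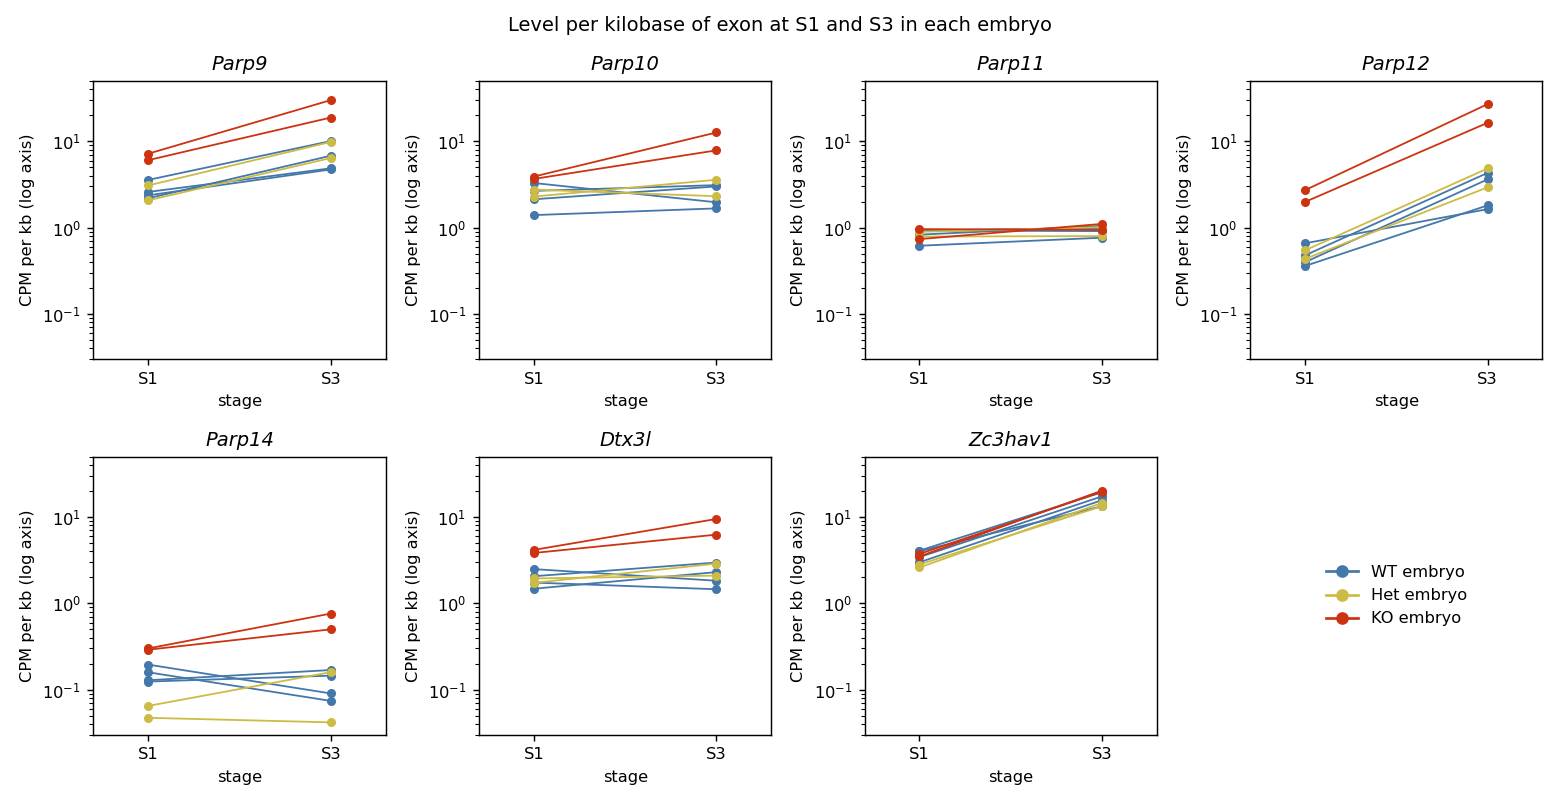
Level of each member in CPM per kilobase of exon (log axis, the same range for every gene) at S1 and S3, with a line joining the libraries of 1 embryo. *Zc3hav1*, *Parp12* and *Parp9* climb in every embryo, and *Parp11* changes least, with S3 at 0.981 to 1.5 times S1. *Dtx3l*, *Parp10* and *Parp14* climb in both KO embryos but not in all WT embryos.

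The nearest neighbours of the members were sought among 11191 genes with a mean normalized count above 10 at both stages, by the root mean square difference of their log2 CPM, centred on the WT mean of the stage, over the 16 libraries. Such likeness describes these libraries and includes their shared depth and sorting. Among the non-members nearest to the median profile of the family were *Helz2* (0.21), *Adar* (0.23), *Ogfr* (0.25) and *Irf9* (0.27). *Dtx3l* was the gene nearest to *Parp9*, and *Parp9* that nearest to *Dtx3l*, at 0.22, with *Ifih1* second for both (0.27 and 0.24). The nearest gene was *Adar* for *Parp10* (0.28), *Igtp* for *Parp12* (0.42) and *Irgm2* for *Parp14* (0.59). *Zc3hav1* was nearest to *Irf2* (0.13) and *Parp11* to *Tsc22d4* (0.12), and the nearest other member ranked 1637 for the former and 3035 for the latter.

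The same comparison, KO against WT at S3, was read for other genes of ADP-ribose biology. Of the 10 other PARP genes listed, 7 were tested in KO against WT at S3 and 0 passed in edgeR (0 also at an unadjusted p under 0.05, and 0 in DESeq2), with a median log2 fold change of 0.04. *Parp16*, *Parp6* and *Tiparp* had the smallest p of that list, with log2 fold changes of -0.35, 0.30 and 0.15. Of the 6 genes that remove ADP-ribose, 0 passed in edgeR and 0 in DESeq2 (1 at an unadjusted p under 0.05, *Macrod1*, at 0.79), and *Adprh* and *Macrod2* were at 0.20 and 0.21. Of the 6 tested among 8 relatives of DTX3L and cofactors of ZAP, 1 passed, *Trim25*, the ubiquitin ligase that ZAP works with, at 1.02 (SE 0.15, edgeR adjusted p = 0.0351). *Dtx2* and *Dtx3*, which are relatives of *Dtx3l*, were at 0.66 and 0.25 and did not pass.

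Of 12 genes of interferon signalling, all tested in the same comparison, 7 had log2 fold changes above 0. Their median was 0.12 over the 12 genes, against 0.01 over all genes tested. *Irf7* and *Irf9* were among those that rose and passed, where 0.559% of all genes passed in either direction. *Ifngr2* lay the other way at -0.57 and did not pass (adjusted p = 0.326 in edgeR). *Irf7*, which encodes a factor that drives interferon genes, had a log2 fold change of 2.81 (SE 0.45, adjusted p = 0.0419 in edgeR). *Irf9*, which encodes the DNA-binding subunit of the factor at interferon-response elements, had 1.39 (SE 0.22, adjusted p = 0.0392 in edgeR).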

How the data were processed

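RNA-seq gene counts of S1 and S3 erythroblasts from 4 WT, 2 Het and 2 KO embryos were analysed, with groups taken from the sample titles. RNA was amplified before library preparation. The authors aligned reads to mm39 with STAR 2.7.9 and deposited raw counts of read pairs per gene from featureCounts 1.6.4 (Ensembl release 104, strand not used, multi-mapping and multi-overlapping reads left out). The versions come from the submitters' processing notes. Gene symbols from GENCODE mouse release 39 were found for 54749 of 55416 genes. A further 4 library columns of the table belong to none of these samples and were not used.

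Counts were TMM-normalized, genes with a mean normalized count of 10 or fewer in a comparison were left out, and edgeR 4.0.16 in R 4.3.3 (glmQLFit, glmQLFTest) was run with Benjamini-Hochberg adjustment at 0.05, without covariates. All 7 members passed the filter in every comparison. Standard errors are the log2 fold change over the root of the F statistic, and intervals use the degrees of freedom of the fit. With 2 KO and 4 WT libraries an exact permutation test of a single value could not go below 0.0667, so none was run. In the genotype comparisons within a stage the p-values measure the spread between embryos. The main stage and interaction fits had no embryo term and treated the 2 libraries of an embryo as independent. Embryo number and depth were not compared as limits on precision. The alternatives were DESeq2 1.42.0, other filters and scaling, sex as a covariate, all libraries in the fit, the embryo as a block and leaving out each embryo. The newer edgeR method, and sex as a covariate in the comparisons with Het, were chosen after seeing the data.

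The stages of 1 embryo come from the same animal, so same-numbered libraries are paired. Over 11191 genes, the deviations of an embryo's 2 libraries from their group means correlated with r of 0.146 to 0.468 in WT, 0.534 in the KO pair and 0.0664 in the Het pair. On simulated counts with a log2 change of 2, KO against WT returned 161 of 195 altered genes at S3 (8 false calls, 11610 genes) and 131 of 195 at S1 (10 false calls, 13798 genes), the WT stage comparison 167 of 190 with 9 over 13252 and the interaction 89 of 198 with 9 over 13301.

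The members and lists were chosen with earlier results of these data known. Besides the members, the text names the 3 genes of smallest p at S3 in each list, the most abundant gene per length of each marker list, and the nearest genes by profile. A gene that this rule would name is not reported here. *Marco*, *Ly6g*, *Plec*, *Ifngr2*, *Ppbp*, *Pf4*, *Gp1ba* and *Ngp* were named after their values were seen.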

Additional observations from a re-analysis of the deposited data

Results flagged for a closer look

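*Parp14* at S1 stood out because the Het and KO libraries lay on opposite sides of all WT libraries. The mean log2 difference from the WT mean was -1.32 in Het, from 21 reads in each of the 2 libraries against 37 to 72 in the 4 WT libraries. The KO libraries, with 114 and 128 reads, were 0.98 and 0.93 above the WT mean on the same scale. Het against WT came to -1.44 on the log2 scale (SE 0.37, edgeR adjusted p = 0.905), and DESeq2 called 0 members there. KO against Het came to 2.42 (SE 0.35), missed the threshold in edgeR (adjusted p = 0.0793) and passed in DESeq2 (adjusted p = 0.000632). The KO against Het fit reuses the Het libraries that led to the flag, so it is not an independent test of the pattern. No WT library of any member was an outlier by Dixon's test at either stage.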

How the results depend on the processing

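In KO against WT at S1, members called rose from 0 (1 gene called in all) to 3 with DESeq2 (45 genes) and with DESeq2 and sex (171), and to 1 without the filter (7 of 26226) and in edgeR with sex (21). In KO against Het at S3 the count moved from 1 (18 genes called in all) to 5 with DESeq2 (186) and without the filter (452 of 21738), to 2 with filterByExpr (36), and to 0 with upper-quartile scaling (5) and with all 16 libraries in the fit (4). At S1 it moved from 1 (6 genes) to 4 with DESeq2 (66) and without the filter (280 of 24748), and to 0 with upper-quartile scaling (3), the newer edgeR method (3) and all 16 libraries (2). With sex in the edgeR fit it was 6 at S3 (2724 of 11345 genes) and 4 at S1 (1436 of 13814). The female KO embryo sets the sex term there, so that these fits compare 1 KO with 2 Het libraries. In Het against WT the fit with sex called 0 members at S3 (2124 of 11746 genes) and 0 at S1 (397 of 13818). Leaving out 1 embryo gave 0 to 5 members in KO against WT at S3, 0 to 6 in KO against Het at S3 and 0 to 4 at S1. The 6 at S3 came with 2830 of 11493 genes called without KO embryo 2 and 1033 of 11213 without KO embryo 9, and the 4 at S1 with 1470 of 13846 and 203 of 13548. These fits have a lone KO library, assumed to vary like the Het pair. Without a Het embryo the count was 0 at both stages. The cause was not tested. Genes called over the whole table in KO against WT at S3 ranged from 11 to 730 against 66, and upper-quartile scaling left 4 members, with *Parp9* at an adjusted p of 0.0532 in edgeR. Upper-quartile scaling moved the median log2 change of all genes between stages from -0.08 to -0.26 in WT and from -0.09 to -0.29 in KO.
Log2 fold changes near 0 changed sign. *Zc3hav1* in KO against WT at S1 became -0.0042 with DESeq2, -0.0062 with all libraries in the fit and -0.0028 with DESeq2 and sex, and *Parp10* in S3 against S1 in WT -0.073 with upper-quartile scaling. With sex in the fit of Het against WT, *Parp11* was at -0.045 at S3, and at S1 *Parp9* was at 0.14, *Parp10* at -0.14, *Parp11* at -0.18, *Parp12* at -0.16 and *Dtx3l* at 0.15. Leaving out 1 embryo gave the following ranges. In KO against WT at S1 *Parp11* ran from -0.18 to 0.22 and *Zc3hav1* from -0.10 to 0.088. In Het against WT at S3 *Parp9* ran from -0.0085 to 0.65, *Parp10* from -0.041 to 0.64, *Parp11* from -0.18 to 0.20 and *Parp14* from -1.48 to 0.47. In Het against WT at S1 *Parp9* ran from -0.38 to 0.19, *Parp10* from -0.12 to 0.28, *Parp11* from -0.11 to 0.10, *Parp12* from -0.14 to 0.23 and *Dtx3l* from -0.18 to 0.043. *Parp11* ran from -0.0065 to 0.37 in KO against Het at S3, from -0.19 to 0.22 at S1 and from -0.13 to 0.42 in the interaction, and *Parp10* from -0.063 to 0.42 in S3 against S1 in WT.
The embryo as a replicate block kept the members called at 3 in WT (9410 of 13514 genes called, against 8870 without it), 6 in KO (9151 of 13446, against 7131) and 0 for the interaction (1 gene). Leaving out an embryo in S3 against S1 in KO leaves no residual degrees of freedom for the fit and was not run.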

Other observations

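The gene lists around the family were also read with stage in WT embryos, S3 against S1, with edgeR's quasi-likelihood test and Benjamini-Hochberg adjustment. Over all 13514 genes tested, 30.6% rose and 35% fell, so counts near those shares are not particular to these lists, and no difference from the other genes was tested. The genes in this paragraph were named after their values were seen. Markers of other cells moved in the same comparison, and their part in the values below was not tested. All 8 neutrophil markers and all 3 lymphocyte and dendritic cell markers tested fell. Of 11 macrophage markers 9 rose, of 8 hepatoblast markers 4 rose, and of 5 megakaryocyte markers 1 rose and 1 fell. Of 9 other PARP genes tested, 1 rose (*Parp16*, a tail-anchored transferase of the endoplasmic reticulum, log2 fold change 2.99) and 5 fell, among them *Parp1*, the main DNA-damage PARP, at -1.61. The others that fell were *Parp8* (-4.81), *Parp6* (-1.03), *Tiparp* (-0.89) and *Tnks2* (-0.65). Of the 6 genes that remove ADP-ribose, 1 rose (*Oard1*, 1.20) and 4 fell (*Adprs*, *Macrod2*, *Adprh* and *Macrod1*, from -1.44 to -0.62). Of the 7 tested relatives of DTX3L and cofactors of ZAP, *Khnyn*, a nuclease that acts with ZAP, rose by 1.69, and *Zc3hav1l*, *N4bp1*, *Dtx4* and *Dtx2* fell, from -2.68 to -1.30. Of the 12 genes of interferon signalling, 7 rose and 3 fell. *Irf7* (2.50), *Irf9* (2.21) and *Ifnar1* (2.01) were among those that rose, and *Ifngr1* (-4.68), *Irf1* (-2.12) and *Tyk2* (-2.07) were those that fell.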
